A study of Mus musculus with 16 samples.

Results

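The regions examined here are stretches of the mouse transcriptome that were called as acetylated in every liver peak list of the study. Peaks of all lists on the same chromosome that shared at least 1 bp were joined into merged regions. The regions were selected on the presence of peaks: a merged region counted as shared when each of the 8 lists had a peak in it and no peak in it was 1000 bp long or longer. By this rule 1499 of 25437 merged regions (5.89%) were shared. They lay in 1065 of the 8602 genes that had a peak in any list (12.4%). Peaks in all lists stood in 1579 regions, of which 80 were left out for their length. That presence is how they were picked and no result about them.

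RNA from livers of male mice was fragmented and immunoprecipitated with an antibody to N4-acetylcytidine (ac4C). One group carried the db/db genotype, a loss of the long leptin receptor in all tissues that leads to overeating, obesity and diabetes. The other was of lean C57BL/6 control mice. The labels give db/db as the strain of the mutant mice and no other background, so genotype and background strain cannot be told apart, and neither the ages nor any treatment are given in the sources used here. All mice were kept free of specific pathogens in a 12 h light cycle with food at will. Of the 16 samples, 8 were immunoprecipitates and 8 inputs, 4 of each per group. The processed data were 8 peak lists, 4 of db/db mice (db1, db2, db4 and db5) and 4 of lean mice (C5, C6, C7 and C8), and values of lists are given in this order. The letter C was taken to mean the lean control group. The lists could be tied to a group but not to a numbered sample, and nothing in the labels says that the samples were separate animals, so the spread between lists may be technical in part.

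N4-acetylcytidine is made by NAT10, an enzyme of the nucleolus that acetylates ribosomal and transfer RNA with the help of adaptor factors. The same enzyme has been reported to acetylate messenger RNA, where the mark has been linked to stability and translation of the transcript. A peak in an immunoprecipitation marks a stretch of RNA with more antibody-bound fragments than background, not a single cytidine.

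Of the shared regions, 228 began exactly at a transcription start annotated in RefSeq for assembly GRCm38.p6. For these the first bases of the transcript can be shown. The lines below give the first 30 bases, 5′ to 3′, of 11 of them, with every cytidine, the base that can carry the mark, in capitals. The regions of Elf1, Nufip2 and Uros were among the 12 of highest fold described further on. Eif5b, Ddx21, Hnrnpd, Pdia4, Gsk3a and Pik3r1 belong to the gene groups described there, and Hbs1l and Eif4ebp2 were ranked lower in db/db than in lean lists.
Elf1: CCggagCCgCgggCCCCgagCgtCCgaCCC
Nufip2: agatataCCgagCgagCgCggagaagCagt
Uros: gaCtCgggggagaCagtaagCaCaaggtCt
Eif5b: aCCtggCCggCggCtCtaCtggagaCgCtC
Ddx21: gaggggCggtCCgCtttCtCtgtCgCCCtC
Hnrnpd: CCattttaggtggtCCgCggCggCgCCatt
Pdia4: gCtCaggCagCggggCggggCggtgtaggC
Gsk3a: gtggtgaCaaCgaagCCgaCggCagaggga
Pik3r1: ggCgCCtggCgCtggagCtgCgCCgCtCag
Hbs1l: gCaggtatgaCgtCgCgCatgCgCggaCgC
Eif4ebp2: CgaCCgggCgagagCaggCgagttgagagC
Elf1 (chr14:79481194-79481223), Nufip2 (chr11:77686139-77686168), Eif5b (chr1:37998010-37998039) and Hbs1l (chr10:21295979-21296008) are read from the plus strand. The minus strand carries Uros (chr7:133709266-133709295), Ddx21 (chr10:62602269-62602298), Hnrnpd (chr5:99978909-99978938), Pdia4 (chr6:47813483-47813512), Gsk3a (chr7:25237822-25237851), Pik3r1 (chr13:101768188-101768217) and Eif4ebp2 (chr10:61452640-61452669). Between 6 cytidines (Nufip2, Uros, Gsk3a) and 15 (Elf1) stood in these 30 bases.

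The first 50 bases of the 228 starts held a median of 30% cytidine and 40% guanine. The first 50 bases of 1406 starts at which a region of 1 to 7 lists began held 30% cytidine and 38% guanine. Over all 32817 annotated starts the medians were 26% and 30%. The letters CNNCNNCNNCNN, searched on the transcript strand only, occurred in the first 50 bases of 35.5% of the shared starts, of 34.3% of the other starts with a peak and of 21.1% of all annotated starts. A match describes these letters and is not an acetylated site. Starts of shared regions were close in composition to starts of regions called in fewer lists, and no test was made of the difference.

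The edges of shared regions were nearly fixed. In 1159 of the 1499 regions (77.3%) the peaks began at the same base and ended at the same base in all 8 lists. Another 314 had 1 edge in common, and 26 had neither. Regions called in 2 to 7 lists had the same edges in 67.5% to 72.6% of cases, so fixed edges were common throughout the lists. The sources used here do not give how the caller set the edges. A base under a peak in every list was present in 1498 of the 1499. Shared regions had a median width of 196 bp, with quartiles of 130.5 and 342 bp and a range of 25 to 1339 bp, since offset peaks can join into a region longer than any of them. The 3 longest peaks inside the limit were in Mllt4 (996 bp), Tanc2 (992 bp) and Mex3c (989 bp). Just outside it were regions at Snord88a (1015 bp), Hnrnpm (1017 bp) and Egln1 (1022 bp). Their folds did not set them apart from those just inside, with lowest to highest values of 3.98 to 16.6 outside and 3.57 to 22.1 inside.

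Among the 968 regions called in 7 lists, the list without a peak was db1 in 193, db2 in 84, db4 in 101 and db5 in 131. A lean list was the one without a peak in 109 (C5), 116 (C6), 107 (C7) and 127 (C8). The list db1 was the most frequent gap, and without it the rule gave 1679 shared regions.

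Shared regions held 12002 of the 68356 peaks (17.6%). They made up 16.9%, 16.2%, 15.4% and 18.3% of the peaks in the db/db lists (db1, db2, db4, db5), and 17.7%, 18.6%, 18.5% and 19.8% in the lean lists (C5 to C8). The share in db5 lay above that in C5, so the groups overlapped. The fold enrichment, the authors' own ratio of immunoprecipitate over background at a peak, had a median over peaks in shared regions of 5.82, 6.43, 6.17 and 6.03 in the db/db lists and of 6.54, 6.50, 6.13 and 6.22 in the lean lists. Peaks outside them had medians of 3.78 to 3.84 in the db/db lists and 3.77 to 3.95 in the lean lists. The rule picked peaks that every list calls, so these folds describe the choice of the regions. A fold of 4 or more in all 8 lists was reached by 751 (50.1%), and 207 had a median fold of 10 or more. The authors' false discovery rate was 100% for 97.4% of the peaks in shared regions, and the lowest was 39.0%, so none was at 5% or less. The rate was not used.

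Regions of highest fold were a mixed set. Of the 11 with a median fold of 100 or more, 7 lay on predicted genes or pseudogenes, among them Gm10800, with folds of 4286, 5054, 3982 and 3927 in the db/db lists and 4312, 4463, 4123 and 6071 in the lean lists. Gm10800 was picked after its values were seen. Whether reads at the 7 regions on predicted genes or pseudogenes also match elsewhere in the genome was not tested. The folds of these 7 regions, Gm10800 included, are therefore uncertain. In all, 54 shared regions lay on predicted genes or pseudogenes. The 4 named genes above 100 were Rsph3b, Rsph3a, Elf1 and Rab11a. Rsph3b and Rsph3a are near-identical copies of a gene for a protein of the cilium's radial spoke. The sources used here do not say where reads that match both copies were placed, so their values are uncertain. The 88 bp region in Rsph3b had folds of 2739, 3103, 63.8 and 868 in the db/db lists and 2235, 149, 1725 and 943 in the lean lists, a wide range within each group. Mup6, one of the many closely similar major urinary protein genes of the mouse liver, has the same uncertainty and had folds of 63.7, 76.5, 39.1 and 71.6 in the db/db lists and 39.3, 71.7, 73.6 and 88.2 in the lean lists.

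Elf1 encodes a transcription factor of the ETS family. Its region at chr14:79481194-79481637, which starts 20 bp inside the annotated gene start, had folds of 354, 256, 408 and 231 in the db/db lists and 458, 496, 469 and 334 in the lean lists. All 8 values were above 200-fold, and the groups overlapped. Rab11a encodes a small GTPase of recycling endosomes. Its region at the gene start (chr9:64737584-64737758) had folds of 143, 171, 166 and 164 in the db/db lists and 199, 249, 231 and 180 in the lean lists. The db/db folds were the lower ones, but in every list the region stood among the top 1% of the 1579 regions called in all lists, and its ranks overlapped between the groups.

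Polr3e, a subunit of RNA polymerase III, had folds of 64.8, 95.4, 124 and 104 in the db/db lists and 83.7, 89.6, 107 and 102 in the lean lists at its gene start. Lasp1, an actin-binding scaffold protein, had 88.2, 95.2, 91.9 and 85.8 in the db/db lists and 61.04, 45.05, 84.4 and 79.96 in the lean lists, also at its gene start. The folds of Lasp1 were all higher in db/db than in lean lists, while its ranks overlapped.

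Uros, which makes uroporphyrinogen III in haem synthesis, had folds of 23.3, 27.5, 17.96 and 34.02 in the db/db lists and 42.5, 40.02, 44 and 40.99 in the lean lists. Its db/db folds were all lower than its lean folds. Nufip2, an RNA-binding partner of the fragile X protein, had 33.02, 41.6, 24.8 and 23.7 in the db/db lists and 50.1, 42.7, 43.3 and 48.5 in the lean lists. The histone chaperone gene Anp32b, with 32.3, 32.8, 21.8 and 38.4 in the db/db lists and 39.2, 32.6, 43.6 and 39.1 in the lean lists, overlapped between groups. In none of these 12 regions of highest fold did the ranks separate the groups. Of the 11 with a known strand, 6 lay within 500 bp of the gene start, and Rsph3b had no distance to judge by.

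**Figure D1:**
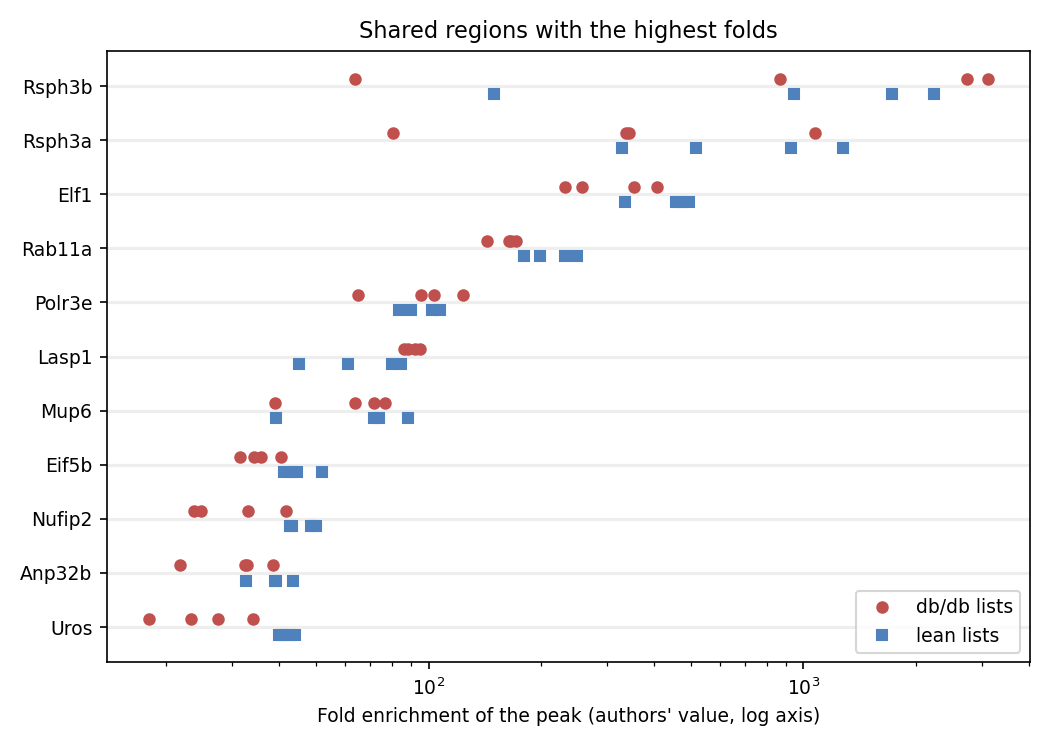
Fold enrichment at 11 of the 12 shared regions of highest fold percentile outside predicted genes (down the page, logarithmic horizontal axis), with a circle for each of 4 db/db lists and a square for each of 4 lean lists. Folds of Rsph3b span 63.8 to 3103 within the db/db lists alone, while those of Elf1 stay between 231 and 408 in the db/db lists and between 334 and 496 in the lean lists.

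Shared regions lay near gene starts more often than other peaks did. The strand of the gene was known for 1217 of the 1499 regions, and 358 of them (29.4%) came within 500 bp of the annotated gene start, against 21 (1.73%) within 500 bp of its end. Counted by peak within each list, 29.3% ± 0.08 of the peaks in shared regions were at the start, against 17.6% ± 2.54 of the other peaks (SD, n = 8 lists). The difference of 11.7 ± 2.48 percentage points was positive in 8 of 8 lists (exact two-sided sign-flip permutation test, p = 0.0078, the smallest that 8 lists allow). At the gene end the shares were 1.64% ± 0.04 in shared regions against 4.10% ± 0.37 elsewhere. That difference of -2.45 ± 0.38 points was negative in 8 of 8 lists (exact sign-flip permutation test, p = 0.0078). The same regions recur in every list, so the test covers only the spread between lists. Exon and untranslated-region annotation was not used here, and the distances are along the genome, introns included.

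Among the other peaks, the share at the gene start was 14.5%, 15.8%, 15.6% and 16.9% in the db/db lists and 20.1%, 22.2%, 18.6% and 17.1% in the lean lists. Every db/db value was below every lean value, the nearest being 16.9% in db5 and 17.1% in C8. The db/db lists held 8878, 9267, 9754 and 8212 peaks, and the lean lists 8503, 8066, 8093 and 7583. The part of list length in this difference was not tested. In shared regions, which are the same in all lists, the share at the gene start was between 29.2% and 29.4% in each.

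The share at the gene start went up with the number of lists that called a region. It was 10.2% for regions of 1 list, 13.4% for 2, 17.9% for 3, 19.5% for 4, 21.6% for 5, 22.5% for 6, 25.8% for 7 and 29.4% for 8. With genes cut into 10 equal parts from start to end, the first part held 34.8% of the shared regions and 18.4% of regions called in 1 to 7 lists, and the last part held 5.67% and 13.9%. Shared regions at the gene start were wider than those elsewhere, with medians of 301 and 167 bp, and had a median fold of 6.70 against 5.86. Width was not separated from position here, and its part in the difference was not tested.

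**Figure D2:**
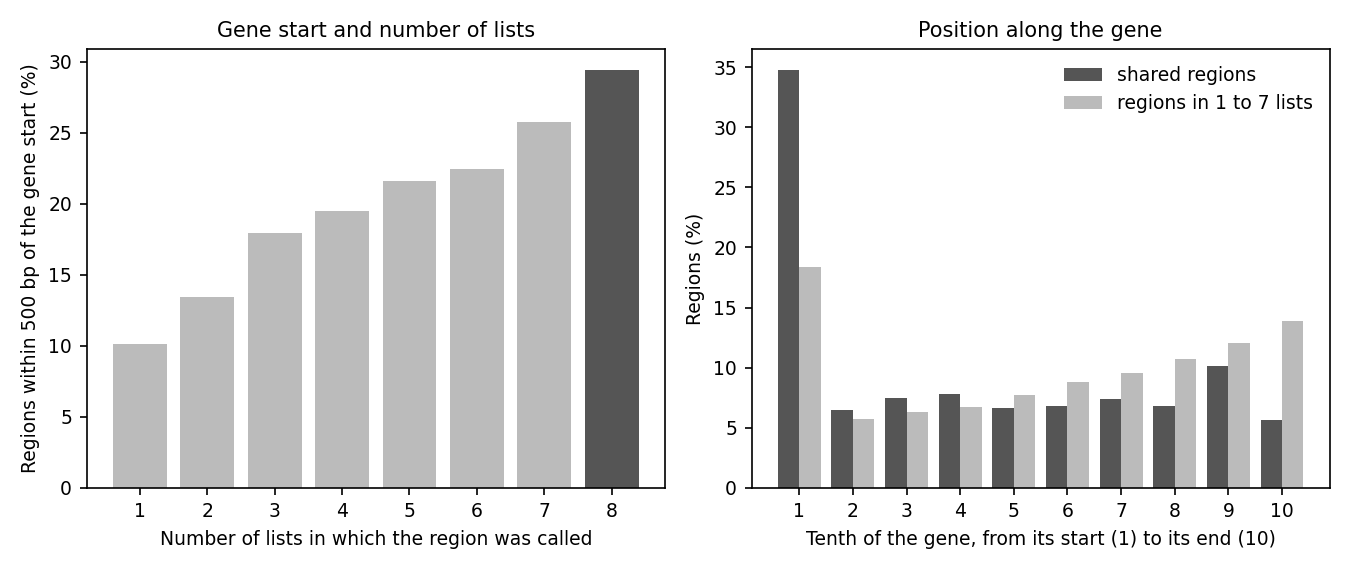
Left, the percentage of merged regions within 500 bp of the annotated gene start by the number of lists that called them, in grey for 1 to 7 lists and dark for shared regions. Right, the percentage of regions in each of 10 equal parts of the gene from start to end, dark bars for the 1217 shared regions and grey for regions of 1 to 7 lists; the first part holds 34.8% of the shared ones.

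Some terms for RNA handling made up a larger share of genes with a shared region than of all genes with a peak. Of the 1065 genes, 214 (20.1%) carried the term poly(A) RNA binding in the annotation deposited with the peaks, against 780 (9.07%) of the 8602 genes with any peak. For RNA splicing the numbers were 47 (4.41%) and 165 (1.92%). Metabolic pathways were listed for 49 (4.60%) and 605 (7.03%), and lipid metabolic process for 17 (1.60%) and 216 (2.51%). These terms were picked after their values were seen, and no test was made of them. Genes with a shared region were longer than other genes with a peak, with medians of 35.5 and 27.5 kb, and had medians of 4 and 2 merged regions. The part of gene length and of transcript level in these shares was not tested. In bulk liver, fewer cells of a type and less RNA per cell cannot be told apart either.

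Against the 12.4% of all genes with a peak that had a shared region, the spliceosome and SR protein list had 16 of 26 (61.5%). This and the other gene lists were chosen with earlier results of these data known, so their shares may reflect that choice. The pathway term Spliceosome of the deposited annotation, also picked after its values were seen, had 38 of 99 genes (38.4%). The 24 shared regions of the spliceosome and SR protein list had a median fold percentile within the lists of 83.2, beside 82.0 over all shared regions. Rbm25, a splicing factor, had folds of 16.7, 20.8, 14.04 and 21.03 in the db/db lists and 21.4, 14.2, 15.3 and 25.3 in the lean lists. Srrm2, a large scaffold protein of the spliceosome, had 11.2, 14.8, 14.8 and 10.9 in the db/db lists and 14.1, 15.1, 17.2 and 13.4 in the lean lists. Both genes' values overlapped between groups. Luc7l3 and Srrm1, which also act in splice site choice and splicing, had folds of 5.42 to 9.91 and 8.04 to 10.8 in the db/db lists, and of 8.03 to 9.72 and 6.89 to 10.8 in the lean lists.

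RNA helicases, which unwind RNA in splicing, ribosome assembly and translation, had 9 of 17 genes (52.9%). Genes of that list with a peak had a median length of 31.9 kb and a median of 6 merged regions. Dhx36, a helicase that resolves G-quadruplexes, had folds of 28.2, 25.9, 28.96 and 25.2 in the db/db lists and 23.6, 23.8, 29.9 and 22 in the lean lists at its gene start, and all 8 values lay within a narrow band. The best of 6 regions in Ddx46, a splicing helicase, had 9.96, 17.9, 11.5 and 19.3 in the db/db lists and 14.9, 16.3, 17.6 and 20.3 in the lean lists. Ddx21, a nucleolar helicase, had 12.98, 10.6, 8.97 and 9.08 in the db/db lists and 23.8, 13.1, 10.3 and 17.01 in the lean lists. Both overlapped between groups.

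Translation factors had 8 of 15 genes (53.3%), with 16 regions and a median percentile of 87.8. Eif5b, which joins the ribosomal subunits at the end of initiation, held 6 of them. The region 23.6 kb into the gene (chr1:38021594-38021811) had folds of 34.2, 40.5, 35.8 and 31.5 in the db/db lists and 44.5, 41.2, 51.96 and 43.1 in the lean lists. The region at its very start, whose first bases are given above, had 19.9, 25.9, 22.1 and 37.1 in the db/db lists and 38.8, 30.2, 24.3 and 29.2 in the lean lists. Eif3a, the largest subunit of initiation factor eIF3, had 6.96, 8.09, 7.51 and 10.1 in the db/db lists and 10.5, 8.56, 10.03 and 12.1 in the lean lists. Cytosolic ribosomal proteins had 1 of 8 genes, Rpsa, with 10.04, 8.31, 9.66 and 9.32 in the db/db lists and 7.9, 7.93, 7.89 and 6.82 in the lean lists. For Rpsa the folds, but not the ranks, were all higher in db/db lists.

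RNA-binding proteins of the hnRNP type had 9 of 22 genes (40.9%). Hnrnpd, a regulator of mRNA decay, had folds of 12.9, 19.96, 15.4 and 24.3 in the db/db lists and 20.4, 9.9, 19.1 and 10.6 in the lean lists. Hnrnpul1, which acts in RNA processing and DNA repair, had 9.94, 14.8, 11.7 and 7.82 in the db/db lists and 11.2, 13.5, 14.6 and 11.9 in the lean lists. Qk (quaking), a splicing and stability factor, had 7.85, 14.3, 12.1 and 7.95 in the db/db lists and 6.84, 5.48, 7.42 and 9.41 in the lean lists. Values overlapped between groups in all 3.

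Nucleolar factors, the list that contains Nat10 itself, had 4 of 20 genes (20.0%): Ncl, Rrp12, Wdr43 and Nop14. Nucleolin (Ncl), a main protein of the nucleolus, had folds of 9.94, 10.4, 10.2 and 10.3 in the db/db lists and 11.3, 8.94, 11 and 10 in the lean lists, all between 8.94 and 11.3. Nat10 had no shared region. Elongation and Mediator genes had 4 of 18 genes (22.2%). Supt5, an elongation factor of RNA polymerase II, had 22.03, 21.98, 12.3 and 18.4 in the db/db lists and 24.5, 15.8, 13.4 and 30.8 in the lean lists in the region of higher fold. Med15, a subunit of Mediator, had 17.8, 25.7, 21.1 and 19.3 in the db/db lists and 21.7, 14.2, 9.21 and 18.2 in the lean lists.

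Chromatin regulators had 17 of 37 genes (45.9%) and the most shared regions of any list, 44. Long genes and many peaks went with this count, since genes of that list with a peak had a median length of 86.1 kb and a median of 10 merged regions. Smarca2 and Smarca4, the alternative ATPases of the SWI/SNF remodelling complex, held 8 and 7, more than any other gene. Both Smarca2 and Smarca4 had 2 regions of 174 bp and 1 of 219 bp. All 15 regions had the same edges in all lists. The 8 regions of Smarca2 spread from 25.6 to 169.1 kb behind the gene start, and their median folds ran from 4.43 to 11.1. Those of Smarca4 had median folds from 3.94 to 11.9.

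In Smarca2 the region 115.7 kb from the start (chr19:26720729-26720947) had the highest folds, 10.5, 13.5, 15.1 and 11.8 in the db/db lists and 10.6, 11.7, 8.14 and 9.13 in the lean lists. Its ranks were higher in every db/db list, although the folds themselves overlapped. None of the other 7 regions of the gene separated the groups. Over all 1579 regions called in all lists 6.84% ranked higher in this way, and none passed after adjustment. Bptf, a subunit of the NURF remodeller, had 14.5, 12.4, 12.3 and 13.7 in the db/db lists and 14.1, 8.98, 13.5 and 10.3 in the lean lists. Ncor1, a corepressor that recruits histone deacetylase, had 6.02, 12.6, 7.3 and 9.33 in the db/db lists and 18.2, 21.5, 10.96 and 15.1 in the lean lists, and both overlapped.

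**Figure D3:**
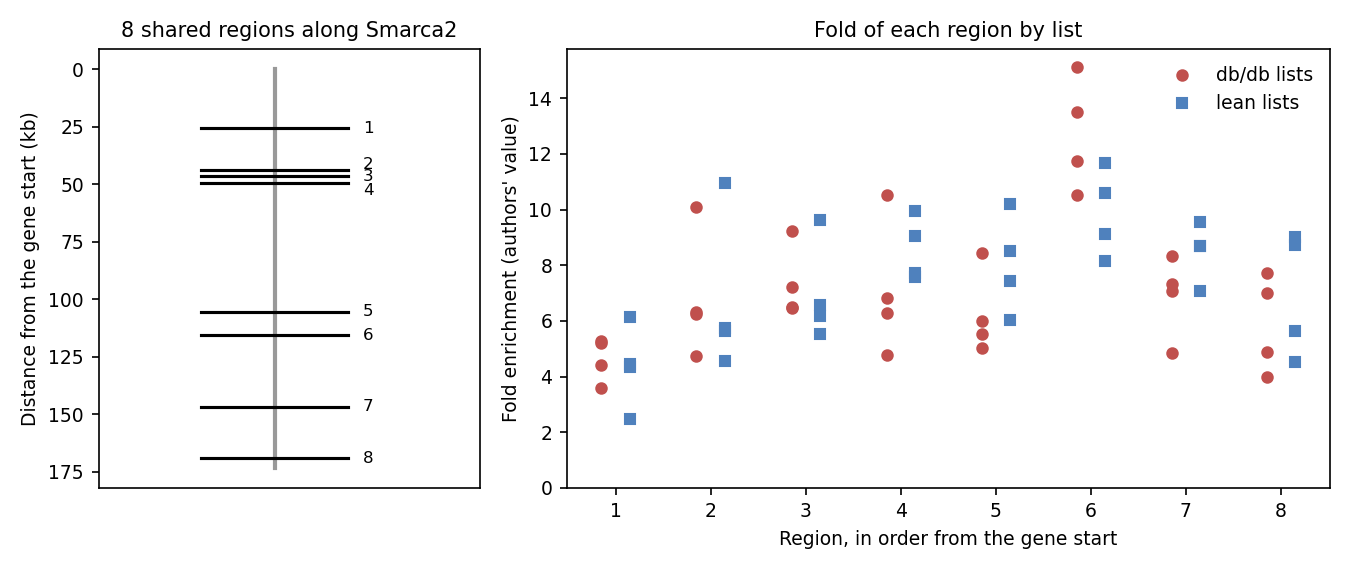
Left, the 8 shared regions of Smarca2 by distance from the gene start in kb. Right, fold enrichment of each region, numbered from the gene start, with a circle for each of 4 db/db lists and a square for each of 4 lean lists; region 6 has the highest folds, 10.5 to 15.1 in the db/db lists and 8.14 to 11.7 in the lean lists.

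Other genes with many shared regions were Cgnl1, a junction protein (6), Ddx46 (6), Eif5b (6), Erc1, a scaffold of vesicle docking (6), Rock1, a kinase of the actin cytoskeleton (6), and Bms1, a GTPase of small ribosomal subunit assembly (5). Of all 1579 regions called in all lists, 6.71% ranked lower in every db/db list than in every lean list, and none passed after adjustment. In Rock1, 3 of the 6 regions ranked lower in this way, and whether this is more than that share gives was not tested. The one of highest fold (chr18:10106322-10106457) had folds of 5.95, 8.25, 4.96 and 9.01 in the db/db lists and 12.2, 12.6, 10.3 and 10.3 in the lean lists, and another (chr18:10090813-10090978) had 4.18, 3.6, 4.4 and 4.78 in the db/db lists and 6.47, 8.49, 6.96 and 6.04 in the lean lists. Most genes had few, since 774 had 1 shared region, 205 had 2, 53 had 3 and 33 had 4 or more.

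The lists of liver metabolism had at most 1 gene each with a shared region. No shared region lay in the fat synthesis list, although all 21 of its genes had a peak in some list, or in the secreted plasma proteins, of which 7 had a peak. Nuclear receptors and coregulators had 1 of 19 (5.26%; Ncoa6, a coactivator) and the circadian clock 1 of 12 (8.33%; Clock). Fatty acid oxidation had 1 of 8 (12.5%; Cpt2, a mitochondrial carnitine transferase) and xenobiotic metabolism 1 of 5 (20%; Ephx1, an epoxide hydrolase). These counts are small, and the last pair of lists stood at or above the 12.4% of all genes with a peak. Genes of fat synthesis with a peak had a median length of 51.6 kb and 2 merged regions each. None of 73 marker genes of hepatocytes, macrophages, endothelial cells, stellate cells, cholangiocytes, lymphocytes and erythroid cells had a shared region, and 42 of them had a peak in some list. Of 12 hepatocyte markers only 3 had a peak. The lists hold peaks and not transcript levels, so the labelled tissue could not be checked from them.

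Insulin signalling had 4 of 21 genes (19.0%). Mtor, a kinase of the nutrient response, had folds of 9.37, 13.5, 8.14 and 8.55 in the db/db lists and 6.53, 5.04, 4.79 and 7.44 in the lean lists, and every db/db value lay above every lean one. It held the only 1 of the 5 shared regions of this list that ranked apart. Of all 1579 regions called in all lists, 6.84% ranked higher in every db/db list, and none passed after adjustment. Gsk3a, a kinase that inhibits glycogen synthase, had 6.99, 8.08, 11.3 and 10.4 in the db/db lists and 11.4, 7.62, 5.8 and 6.09 in the lean lists. Akt1, a kinase activated by insulin, had 9.54, 4.1, 4.04 and 5.1 in the db/db lists and 5.49, 7.43, 6.51 and 7.23 in the lean lists. Pik3r1, the regulatory subunit of PI3 kinase, had 5.15, 5.96, 3.73 and 5.07 in the db/db lists and 5.83, 12.7, 8.85 and 10.2 in the lean lists. The last 3 overlapped between groups.

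Of the endoplasmic reticulum stress list, 2 of 12 genes had a shared region. Pdia4, a disulfide isomerase, had folds of 41, 20.2, 10.1 and 21.5 in the db/db lists and 19.1, 20.9, 18.04 and 28.3 in the lean lists, a wide spread inside the db/db group. Calnexin (Canx), a chaperone of glycoproteins, had 5.84, 5.58, 5.78 and 5.13 in the db/db lists and 10.5, 8.95, 9.43 and 10.3 in the lean lists, with no overlap. Its ranks did not overlap either, beside 6.71% of all 1579 regions ranked lower in every db/db list, and none passed after adjustment. Giant cytoskeletal proteins had 7 of 18 genes (38.9%), and ubiquitin ligases and deubiquitinases 7 of 19 (36.8%). Genes of these lists with a peak had median lengths of 98.0 and 108.9 kb, and medians of 10.5 and 7 merged regions. Genes with a peak but no shared region had 27.5 kb and 2. The part of gene length in these shares was not tested. Dst, a linker of cytoskeletal filaments, had 12.3, 11.7, 9.91 and 9.03 in the db/db lists and 7.15, 8.34, 7.61 and 5.58 in the lean lists. Cul3, a scaffold of ubiquitin ligases, had 6.17, 10.5, 12.1 and 6.09 in the db/db lists and 5.55, 4.71, 3.51 and 4.77 in the lean lists.

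**Figure D4:**
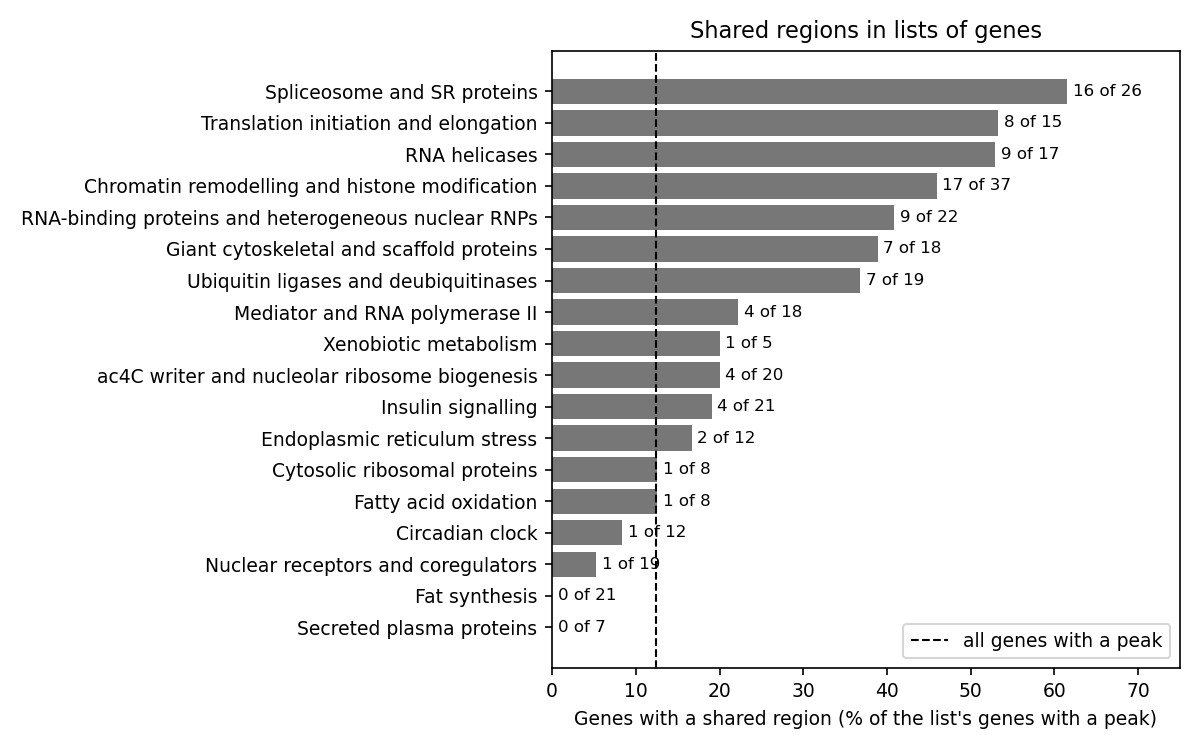
Share of each list's genes with a peak that had a shared region, in percent, with the numbers beside the bars; the dashed line marks the 12.4% of all genes with a peak. Spliceosome genes stand at 61.5% and fat synthesis genes at 0. The lists were chosen with earlier results of these data known.

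The remaining question was whether the shared regions stood at different levels in db/db and lean livers. Folds of different lists are not on a common scale, so each of the 1579 regions called in all lists was ranked by its fold within each list and given a percentile rank from 0 to 100. Ranks of shared regions were alike between lists, and more so within a group. The mean Spearman correlation over the 1499 regions was 0.608 for pairs of db/db lists (0.568 to 0.657), 0.496 for a db/db with a lean list (0.433 to 0.538) and 0.657 for pairs of lean lists (0.625 to 0.685). These describe the lists and carry no test.

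Of the 1499 regions, 104 (6.94%) were ranked higher in every db/db list than in every lean list, beside 6.84% of all 1579 regions. Lower in every db/db list were 102 (6.80%), beside 6.71%. Ranking centres each list. On the folds themselves, compared after the data were seen, 80 regions were higher and 118 lower in every db/db list. Ranked by score, 120 were higher and 133 lower. Shares over all 1579 regions are not given for the counts by fold and by score, and folds of different lists are not on a common scale. The length limit set by the rule removed only 80 of the 1579, so the shares by rank of fold had to be close. Each direction touched 97 genes. The exact two-sided permutation test of 4 against 4 lists cannot give less than p = 0.0286, and after Benjamini-Hochberg adjustment over the 1579 regions the smallest value was 0.211. None of the 1579 passed a threshold of 0.05, while 206 of the shared regions had an unadjusted p below it. At that smallest p, 57.1% of the regions would have had to separate before any could pass, so the adjusted values do not show that the groups were alike. Without the list db1 the number ranked lower was 166, where 3 lists were set against 4 and can separate more easily.

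Regions ranked higher in db/db lists by the widest margin were in Khdrbs3, Rev1, Mink1, Pawr, Zmynd19, Asxl1, Mex3c and Sbk1. The regions of widest margin in either direction were chosen among those whose ranks do not overlap. Their separation is therefore part of the choice and no result about them. Khdrbs3, an RNA-binding splicing regulator, had folds of 7.49, 6.96, 12.4 and 11.6 in the db/db lists and 2.49, 2.09, 3.62 and 3.21 in the lean lists (chr15:68995052-68995170). Its mean rank was 75.7 in the db/db lists and 3.3 in the lean lists, the widest margin of all shared regions at 72.4 points. Rev1, a DNA polymerase of translesion synthesis, had 9.2, 7.44, 9.31 and 9.16 in the db/db lists and 2.63, 2.79, 3.86 and 4.55 in the lean lists at 259 bp from its gene start. Mink1, a kinase of stress signalling, had 9.97, 10.9, 8.36 and 11.8 in the db/db lists and 4.19, 3.71, 5.26 and 4.42 in the lean lists. The folds of these 3 did not overlap between groups either, which the choice on ranks made likely.

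Pawr, a pro-apoptotic protein, had folds of 13.6, 11.6, 7.7 and 7.49 in the db/db lists and 4.83, 3.95, 3.73 and 5.63 in the lean lists. Asxl1, a polycomb-related chromatin regulator, had 12.6, 9.57, 16.1 and 14.7 in the db/db lists and 4.17, 5.34, 5.55 and 5.89 in the lean lists, and its region (chr2:153345845-153346390) starts 15 bp inside the gene. The mean ranks of Pawr and Asxl1 were 78.3 and 89.2 in the db/db lists and 22.2 and 34.2 in the lean lists. Mex3c, an RNA-binding ubiquitin ligase, had 22.1, 12.2, 20.7 and 10.3 in the db/db lists and 5.8, 3.57, 10.2 and 4.16 in the lean lists, where C7 came close to db5. Zmynd19 had 7.83, 8.77, 9 and 6.99 in the db/db lists and 3.73, 3.48, 5.55 and 2.68 in the lean lists. Ranked by score in place of fold, the margin of Zmynd19 was 33.7 points, against 55.7 by fold, and its ranks overlapped between the groups. Ranked by score, the margin of Rev1 was 41.1 points, against 64.9 by fold, and its groups stayed apart. Sbk1, a protein kinase, had 9.37, 11.5, 15.2 and 10.7 in the db/db lists and 4.85, 7.43, 3.28 and 5.83 in the lean lists.

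Lower in db/db lists by the widest margin were regions in Esf1, Tmpo, Arid4b, Hbs1l, Mettl7a2, Mrpl15, Arid5b and Dnajc25. Esf1, a nucleolar factor of ribosomal RNA processing in yeast, had folds of 4.43, 5.29, 3.41 and 3.38 in the db/db lists and 9, 11.8, 11.3 and 13.7 in the lean lists (chr2:140138933-140139054). Its mean rank was 18.7 in the db/db lists and 84.9 in the lean lists, a difference of -66.2 points. Tmpo, a protein of the nuclear lamina, had 3.82, 3.86, 4.98 and 3.45 in the db/db lists and 13.4, 7.04, 11.03 and 11 in the lean lists. Hbs1l, a factor that rescues stalled ribosomes, had 3.69, 3.83, 4.49 and 4.74 in the db/db lists and 8.85, 15.97, 10.8 and 6.35 in the lean lists at the very start of its gene. These regions, too, were chosen for ranks that do not overlap between groups.

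Mettl7a2, a methyltransferase-like protein, had folds of 16.01, 3.72, 5.59 and 4.1 in the db/db lists and 19.98, 19.7, 20.5 and 23.04 in the lean lists. The list db1 stood near the lean values and the other three db/db lists far below. Mrpl15, a mitochondrial ribosomal protein, had 5.43, 6.81, 3.71 and 4.72 in the db/db lists and 13.6, 13.2, 10.1 and 14.3 in the lean lists. Arid5b, a transcriptional coactivator, had 3.37, 7.6, 4.48 and 3.92 in the db/db lists and 10.8, 9.03, 10.3 and 10.2 in the lean lists. Ranked by score in place of fold, its margin was -14.99 points, against -52.9 by fold, and the ranks of the groups overlapped. Dnajc25, a co-chaperone, had 3.35, 5.72, 4.51 and 6.24 in the db/db lists and 15.2, 6.81, 11.8 and 12.6 in the lean lists.

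**Figure D5:**
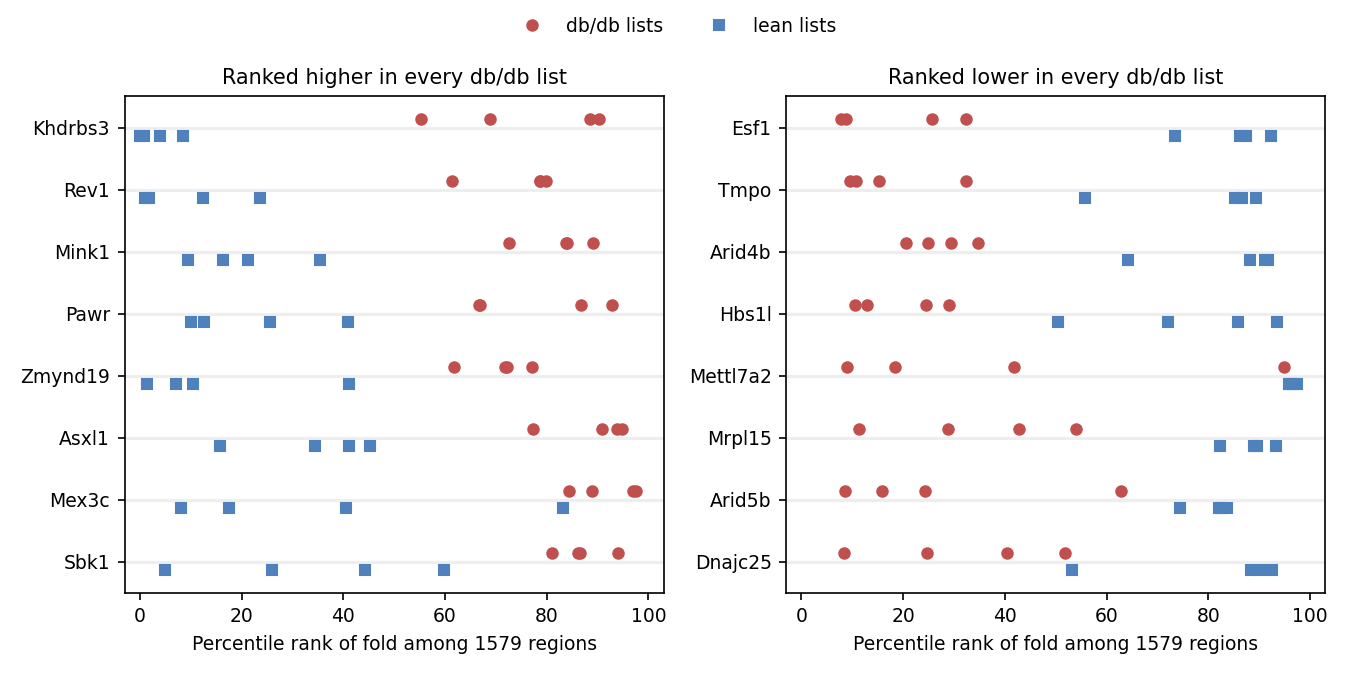
Percentile rank of fold (0 to 100, among 1579 regions called in all lists) for the 8 shared regions with the widest margin in each direction, with a circle for each of 4 db/db lists and a square for each of 4 lean lists. Khdrbs3 ranks from 55.3 to 90.2 in the db/db lists and from 0.095 to 8.45 in the lean lists. All regions shown were chosen for ranks that do not overlap.

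In 4 genes, Arid4b, Bms1, Kif21a and Rrp1, a region ranked higher in every db/db list and another ranked lower. These stand beside 205 genes with 2 shared regions, 53 with 3 and 33 with 4 or more. Of all shared regions 6.94% ranked higher and 6.80% lower, so some genes with both are possible without any link to the gene. Whether 4 is more than these shares give was not tested, and no region passed after adjustment. Arid4b, a chromatin-binding corepressor, had folds of 6.81, 10.4, 7.14 and 7.47 in the db/db lists and 7.19, 4.11, 3.52 and 7.1 in the lean lists in one region (chr13:14154981-14155135). The other region (chr13:14169919-14170179) had 4.97, 4.82, 4.8 and 4.23 in the db/db lists and 12.9, 7.87, 13.5 and 13.04 in the lean lists. In Rrp1, a factor of ribosomal RNA processing, the region at chr10:78401850-78401966 had 5.54, 6.81, 6.17 and 5.89 in the db/db lists and 4.55, 4.05, 5.07 and 5.14 in the lean lists. Its region at chr10:78412820-78413043 had 4.37, 4.14, 5.71 and 3.47 in the db/db lists and 7.63, 10.2, 10.2 and 7.37 in the lean lists. No transcript level was used here, so its part in these values was not tested.

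In the gene lists, the regions ranked apart were few. Chromatin regulators had 5 ranked higher in db/db lists, among them regions in Chd3, Ep400, Setd1a and Smarca2, and 1 ranked lower, in Smarcc1. Ep400, an ATPase of the NuA4 complex, had folds of 10.2, 7.63, 7.79 and 8.16 in the db/db lists and 4.56, 5.57, 4.45 and 6.91 in the lean lists. Smarcc1, a core subunit of SWI/SNF, had 6.27, 8.78, 4.74 and 4.22 in the db/db lists and 9.66, 13.5, 13.3 and 10.98 in the lean lists. Giant cytoskeletal proteins had 3 ranked higher, in Dst, Plec and Myh9, and none lower. Plec (plectin) had 7.26, 10.03, 9.19 and 7.65 in the db/db lists and 3.76, 6.01, 6.2 and 2.88 in the lean lists. At 5 of 44 and 3 of 12 regions, these counts rest on few regions, and their difference from the 6.84% of all regions was not tested.

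The translation repressor Eif4ebp2 and the helicase Dhx29, which helps ribosomes scan structured leaders, each had a region ranked lower in db/db lists. Dhx29 had folds of 6.51, 5.89, 4.62 and 7.13 in the db/db lists and 15.3, 16.7, 11.7 and 12.8 in the lean lists at its gene start, and Eif4ebp2 had 4.37, 7.13, 6.88 and 3.66 in the db/db lists and 8.28, 11.6, 9.29 and 7.07 in the lean lists. The folds of Eif4ebp2 overlapped slightly, while its ranks did not. Spliceosome genes had 1 region each way, in Srsf11 (higher) and Prpf6 (lower). In Supt5 it was the region at the gene start that ranked lower, with 12.2, 9.34, 9.81 and 12.1 in the db/db lists and 20.1, 19.97, 14.96 and 17.1 in the lean lists.

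The 2 directions were about as frequent at gene starts as elsewhere. Of the 358 shared regions at gene starts, 25 ranked higher and 24 lower in db/db lists (6.98% and 6.70%). Of the 859 elsewhere with a known strand, 62 ranked higher and 59 lower (7.22% and 6.87%).

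The fold percentile within the lists had the smallest SD over the 8 lists at regions of Elf1, Rab11a, Polr3e, Rsph3a and Lasp1, all near the top of every list. A percentile cannot go above 100, so regions near the top have little room to vary on it. The folds of Rsph3a ran from 80.6 to 1071 in the db/db lists and from 329 to 1277 in the lean lists. The percentile had the largest SD at regions of Khdrbs3, Rev1, Kdm5a, Samm50 and Tmem57. Kdm5a, a histone demethylase, had folds of 7.04, 2.85, 2.57 and 3.97 in the db/db lists and 10.3, 5.42, 7.98 and 11.2 in the lean lists, and Samm50, of the mitochondrial outer membrane sorting complex, had 2.59, 3.9, 2.8 and 3.88 in the db/db lists and 7.57, 10.7, 5.51 and 2.6 in the lean lists. In both, the groups overlapped.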

How the data were processed

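ac4C immunoprecipitates and inputs of male mouse liver were sequenced after rRNA depletion and fragmentation, per the labels' protocols. The submitters' processing notes name cutadapt 1.9.3, HISAT2 2.0.4 and the mm10 assembly. The deposited peak names point to MACS as the caller; its version, control and any pooling are not given in the sources used here. The score deposited by the authors rises as the p-value of a peak falls, and no peak had less than 13.02. The deposited fold enrichment is a linear ratio, with a lowest value of 2. False discovery rates were deposited as percent values. No read counts were used. The depth of the lists is therefore unknown, and values carry no counting interval.

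Peaks were merged and counted in Python 3.11.15 with pandas 2.3.3 and SciPy 1.17.1, and the steps were tested on simulated lists. Starts were converted to count from 1. A region took its highest fold per list, the percentile within that list, and a percentile rank among the 1579 regions of all lists. Folds served only to describe and rank. Gene bounds, strands and start sequences came from RefSeq tables of GRCm38.p6. Of 1499 regions, 1464 matched by gene identifier and 1217 had a strand. Sign flips over 8 lists and permutations of 4 against 4 lists were exact and two-sided, with Benjamini-Hochberg adjustment.

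Named were the 12 regions of highest median fold percentile, the 8 genes with most regions, the 8 regions per direction of widest rank margin, up to 4 regions per gene list, 3 regions on each side of the length limit and the 5 least and 5 most variable, without predicted genes. Some genes that this rule selects are not reported here. Regions of list genes that ranked apart, and genes with both directions, were added after their values were seen. The members and the 18 pathway and 7 cell type lists (464 genes, 462 in RefSeq) were chosen with earlier results of these data known. Alternatives changed the joining rule, the length limit, the fold and score cutoffs, the number of peaks, the ranked value, the distance and the lists used.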

Additional observations from a re-analysis of the deposited data

Results flagged for a closer look

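Over 68 sets of 4 lists, 7 had a value that stood apart from the other three by Dixon's criterion, which chance alone meets in about 1 of 20 sets. The list db1 had a fold of 16.01 for Mettl7a2, and db2, db4 and db5 had 3.72 to 5.59. For Rev1, db2 had a fold of 7.44 and the other db/db lists 9.16 to 9.31. For Arid4b, C6 had a fold of 7.87 and the other lean lists 12.9 to 13.5. The other four came from values that are nearly constant because the same regions recur in each list. These were the median width of peaks in shared regions, 194 bp in db1 against 195 bp, the share of peaks at the gene start, 29.3% in db5 against 29.2%, and the share at the gene end, 1.56% in db1 and 1.73% in C5 against 1.64% in the rest.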

How the results depend on the processing

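With peaks of a fold of at least 4 only, 751 regions in 601 genes were shared, 58 genes of the pathway lists had one, and 48 regions ranked higher and 46 lower in db/db lists. With a score of at least 50 the numbers were 579, 448, 48, 44 and 28. Both cutoffs leave fewer peaks in every list, and none of the 16 regions named for their rank margin was shared at that score. Leaving out each list in turn gave 1580 to 1679 shared regions in 1121 to 1179 genes, with 140 to 151 ranked higher and 134 to 166 ranked lower in db/db lists, the highest of these without db1. No region was called after adjustment under any of these settings. The position differences kept their direction and stayed past the threshold in 38 of 38 alternatives. The exact sign-flip permutation test gave p of at most 0.0156, the smallest that 7 lists allow. The same regions recur in every list, so these tests cover only the spread between lists and were likely to pass together. Against other peaks under the length limit, an alternative added after the data were seen, the differences were 11.5 points at the start and -1.55 at the end. The rank margins of the 16 named regions kept their direction in the 249 alternatives that gave a value. A region counts there only where it was still shared, which held for 2 of the 16 at a fold of at least 4 and 12 of 16 with equal numbers of peaks. The 16 were chosen for their separation, so a kept direction is no sign of stability. Ranked by score in place of fold, 14 of the 16 still did not overlap; Zmynd19 (33.7 points) and Arid5b (-14.99) did, and these and Rev1 (41.1) shrank by over 1.5 times. On folds not ranked, an alternative added after the data were seen, 80 regions were higher and 118 lower in db/db lists. Such folds are not on a common scale between lists. No paired analysis was possible because the list names could not be tied to numbered samples. Depth is unknown, so a region absent from a list may be one that its depth could not show.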
